A study of Homo sapiens with 4 samples.

Results

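The genes examined were 10 enzymes of detoxification, which open epoxides, attach glutathione, or attach or supply glucuronic acid. They were EPHX1, EPHX2, GSTM1, GSTM2, GSTM3, GSTM4, GSTP1, MGST1, UGDH and UGT1A6, chosen by name, and all 10 had a line among the 23228 genes of the count tables. The cells were ES2, an established human ovarian cancer cell line, grown without phenol red in medium with charcoal-treated serum. Vehicle was given to 2 samples and liquiritigenin (Liq) to the other 2, for 24 h in both groups. Liq is a plant flavanone used as an agonist of estrogen receptor beta, and its dose, taken from the methods of the study, was 100 μM. Whether the samples of a group came from separate cultures is not stated, so p-values measure the spread between these samples, which may be technical.

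Epoxide hydrolases add water to epoxides, and glutathione S-transferases (GSTs) join electrophiles to the thiol of glutathione. UDP-glucuronosyltransferases move glucuronic acid from UDP-glucuronate onto phenols and other acceptors, and UGDH makes that UDP-glucuronate from UDP-glucose. Many of these genes are known targets of the transcription factor NRF2, which acts at antioxidant response elements, and some are known targets of the aryl hydrocarbon receptor. Flavonoids such as Liq are themselves substrates of glucuronidation.

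Each sample had between 34573053 and 48933893 reads on genes. Levels are given as CPM, counts scaled to a common library size with the TMM factors of edgeR, and 3 counts, the floor used here, came to 0.0598 to 0.0844 CPM. The keratin genes KRT7, KRT8 and KRT18 and the mesenchymal genes VIM, CDH2 and FN1 were all expressed. The epithelial list summed to 452.7 to 494 CPM in vehicle and 528 to 573.7 CPM in Liq, and the mesenchymal list to 15020 to 15620 CPM and 12890 to 13630 CPM. None of these genes was called, with log2 fold changes of 0.51 for KRT7, 0.13 for KRT8, -0.24 for KRT18, -0.28 for VIM, 0.22 for CDH2 and -0.15 for FN1. The epithelial markers EPCAM, KRT19 and CDH1 had 0 to 3 counts per sample, MUC16 0 or 1, and NAPSA 1 to 8. PAX8 and WT1, transcription factors of the Mullerian tract and of ovarian tumours, were low and fell by 1.34 and 0.68 on the log2 scale with Liq, and the summed Mullerian list went from 5.30 to 6.17 CPM in vehicle to 3.29 to 3.53 CPM in Liq. The leukocyte genes PTPRC and CD3E had 0 or 1 counts and CD14 3 to 11, and that list summed to 67.9 to 74.3 CPM in vehicle and 66.5 to 77.7 CPM in Liq, nearly all of it the lysosomal gene CD68. The hepatocyte genes ALB, APOA1 and TTR, markers of the tissue in which these enzymes are best known, summed to 0.0267 to 0.0486 CPM in vehicle and 0.197 to 0.199 CPM in Liq, where ALB had 6 and 9 counts against 1 and 1 in vehicle and TTR had 0 in all samples. The endothelial marker list summed to 50.8 to 53.3 CPM in vehicle and 44.7 to 48.2 CPM in Liq, nearly all of it CDH5, while PECAM1 and VWF had 1 to 10 counts. The part of these markers in the results was not tested.

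Of the 10 enzymes, 7 passed the filter on low counts and 3 did not. With Liq, EPHX1, MGST1 and UGDH rose, and no tested member fell. The call rule asked for a change of 1.5-fold or more together with a Benjamini-Hochberg adjusted p-value below 0.05 across the 13546 tested genes (edgeR's quasi-likelihood test). By this rule 3 of the 7 tested members were called, all higher, while 6.45% of all tested genes were called, 4.29% higher and 2.16% lower. With the unadjusted p-value in the rule it was again 3, against 7.85% of all tested genes, 5.37% higher and 2.49% lower. With loess offsets along the expression level in place of the TMM factors, the split over all genes moved from 581 higher and 293 lower to 350 higher and 396 lower, and the number of members called was again 3. GSTM2 and GSTM3 passed the adjusted p-value but not the 1.5-fold limit, and so 5 of 7 were higher at the adjusted p-value alone. By that rule 24% of all tested genes passed, 12.6% higher and 11.3% lower. In 6 of the 7 members both Liq samples lay above both vehicle samples, as in 31.5% of all tested genes. In 30.2% both lay below, so that the groups did not overlap in 61.7%. The median log2 fold change was 0.45 over the 7 tested members and 0.01 over all tested genes. The members were chosen with earlier results of these data known, so these counts are a description. These values are shares of the RNA in each sample, in which fewer cells making a transcript and less transcript per cell cannot be told apart.

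**Figure D1:**
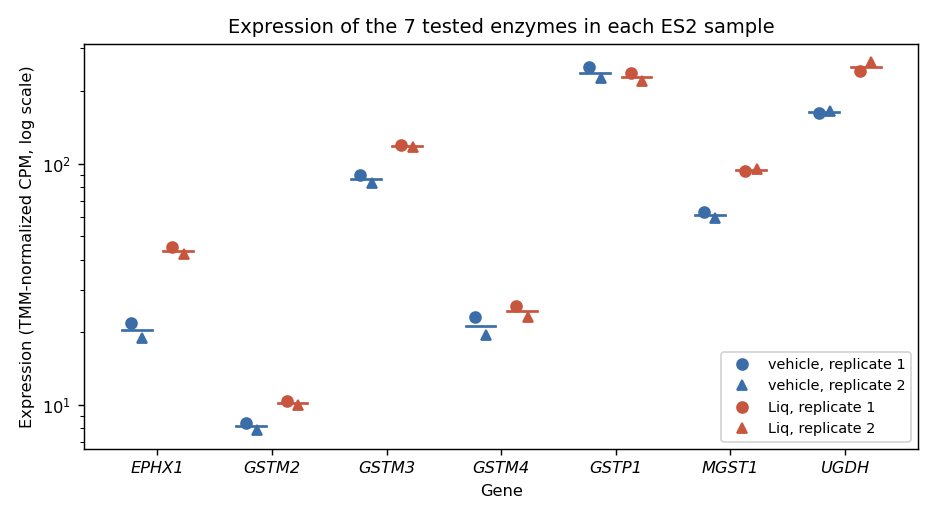
TMM-normalized CPM (log axis) of the 7 tested enzymes in each of the 4 samples. Circles are replicate 1, triangles replicate 2, and short lines the group means. EPHX1, MGST1 and UGDH stand clearly higher in both Liq samples, while the GSTP1 samples of the groups are mixed.

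EPHX1 had the largest change among the members. It encodes microsomal epoxide hydrolase, the enzyme of the endoplasmic reticulum that opens epoxides of foreign compounds such as polycyclic hydrocarbons. The gene lies on chromosome 1 from 225997826 to 226033264 (plus strand, GRCh37, the build of the files). Its counts were 896 and 709 with vehicle and 1599 and 2123 with Liq. As CPM these were 21.8 and 18.9 in vehicle and 44.97 and 42.3 in Liq. The lower Liq sample lay far above the higher vehicle sample. EPHX1 rose 2.14-fold, a log2 fold change of 1.10 (SE 0.09, 95% interval 0.90 to 1.29, edgeR adjusted p = 1.78e-09, rank 67 of all tested genes). It was called in each of 11 alternative fits, with a log2 fold change of at least 1.00.

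RefSeq lists several start sites for EPHX1. The promoter windows below run from 250 bases before to 50 bases after a start, are copied from RefSeq (GRCh38.p14 table) and were placed in GRCh37 by an exact match. Capitals mark matches to TGACNNNGC, the core of the antioxidant response element, or to GCGTG, the core of the xenobiotic response element bound by the aryl hydrocarbon receptor. Both were searched on both strands, a match to GCGTG on the opposite strand reads CACGC as printed, and no matches overlapped. The upstream window is shown because it holds the GENCODE canonical start, and the downstream window, 15229 bases further along the gene, because it holds both cores.
EPHX1 upstream promoter, chr1:225997576-225997875, plus strand: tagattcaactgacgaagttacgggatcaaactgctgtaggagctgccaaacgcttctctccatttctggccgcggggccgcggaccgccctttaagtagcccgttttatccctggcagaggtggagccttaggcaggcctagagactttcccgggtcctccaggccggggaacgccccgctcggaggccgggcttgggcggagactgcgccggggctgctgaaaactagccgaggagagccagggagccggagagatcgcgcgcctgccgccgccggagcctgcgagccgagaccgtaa
EPHX1 downstream promoter, chr1:226012805-226013104, plus strand: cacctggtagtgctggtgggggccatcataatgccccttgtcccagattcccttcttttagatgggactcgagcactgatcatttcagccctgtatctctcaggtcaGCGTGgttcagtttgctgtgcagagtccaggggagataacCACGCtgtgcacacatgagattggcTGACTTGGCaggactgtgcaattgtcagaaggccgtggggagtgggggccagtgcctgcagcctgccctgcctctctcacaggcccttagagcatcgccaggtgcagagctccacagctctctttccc
The upstream window had no match to either core. In the downstream window TGACTTGGC began at -78 from the start, and the 2 matches to GCGTG began at -143 and -103. A gene count does not tell which start was used.

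EPHX2 encodes soluble epoxide hydrolase, which turns epoxides of fatty acids into diols. It had 0 counts in all 4 samples, which allows at most 0.0598 to 0.0844 CPM per sample, so no change could be seen at this depth. The gene lies on chromosome 8 from 27348298 to 27403081 (plus strand, GRCh37). None of the 2677 windows of 100 bases, the read length, along its canonical transcript was shared with another gene in the GENCODE transcripts, and EPHX1 likewise shared none of 1536. The related genes were fixed as a list of 3, EPHX3, EPHX4 and LTA4H. EPHX4 fell from 356 and 262 counts in vehicle to 181 and 255 in Liq, a log2 fold change of -0.63 (SE 0.14, edgeR adjusted p = 0.00132). This call was lost without vehicle replicate 1, where the log2 fold change was -0.46. LTA4H, the hydrolase that makes leukotriene B4, had a log2 fold change of 0.22 (SE 0.07, edgeR adjusted p = 0.0211), below 1.5-fold. EPHX3 did not pass the filter.

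**Figure D2:**
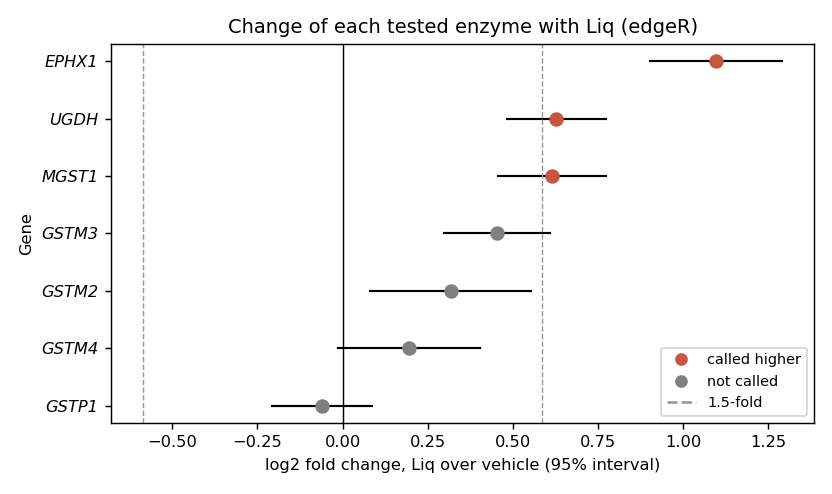
Log2 fold change of each tested enzyme, Liq over vehicle, from edgeR's quasi-likelihood test with its 95% interval. Dashed lines mark a 1.5-fold change in either direction. EPHX1 lies at 1.10 with its whole interval beyond the line, UGDH and MGST1 lie just beyond it at 0.63 and 0.62, and the interval of GSTP1 spans 0.

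The mu-class GSTs are cytosolic enzymes encoded by neighbouring genes on chromosome 1. In GRCh37 GSTM4 starts at 110198721, followed on the plus strand by GSTM2 at 110210644, GSTM1 at 110230436 and GSTM5 at 110254402. GSTM3 lies on the minus strand from 110276554 to 110283660 and is the member least like the rest. Over the coding sequence GSTM2 was 89.9% identical to GSTM1, 89.1% to GSTM4, 87.5% to GSTM5 and 70.1% to GSTM3. The first 100 bases of the GSTM2 coding sequence, 1 read length, and the best ungapped match in each relative are printed (GENCODE transcripts, GRCh37) to show how closely reads of these genes resemble each other. Capitals mark bases that differ from GSTM2.
GSTM2: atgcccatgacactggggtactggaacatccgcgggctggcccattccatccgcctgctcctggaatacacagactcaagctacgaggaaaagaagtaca
GSTM1: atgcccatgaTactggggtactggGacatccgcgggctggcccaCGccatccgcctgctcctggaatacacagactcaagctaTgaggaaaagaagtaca
GSTM4: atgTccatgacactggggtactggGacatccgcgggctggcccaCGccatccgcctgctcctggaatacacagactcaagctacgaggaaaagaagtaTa
GSTM5: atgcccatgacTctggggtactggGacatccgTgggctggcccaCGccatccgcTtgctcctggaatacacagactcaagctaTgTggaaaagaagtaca
GSTM3: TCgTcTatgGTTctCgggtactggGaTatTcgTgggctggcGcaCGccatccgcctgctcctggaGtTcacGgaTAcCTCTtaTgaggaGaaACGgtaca
GSTM1 and GSTM4 each differed from GSTM2 at 5 of these 100 positions, GSTM5 at 8 and GSTM3 at 29. Of all 100-base windows of the canonical transcript, 37.9% of GSTM1, 37% of GSTM2, 4.6% of GSTM4 and 0.0% of GSTM3 also occurred in a transcript of another gene. Reads that align to more than 1 place were not counted, so GSTM1 and GSTM2 counts come from part of the transcript and are reported as uncertain.

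GSTM3 is the mu-class gene with most reads in ES2 cells. It had 3699 and 3117 counts in vehicle and 4262 and 5887 in Liq, or 90.0 and 83.3 CPM against 119.9 and 117.3 CPM. Both Liq samples were above both vehicle samples. The log2 fold change was 0.45 (SE 0.08, 95% interval 0.30 to 0.61, edgeR adjusted p = 7.85e-05), a 1.37-fold difference that passed the p-value and not the fold threshold. Across 11 alternative fits it ranged from 0.40 to 0.51.

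GSTM2 had 348 and 294 counts in vehicle and 370 and 500 in Liq, which were 8.46 and 7.85 CPM and 10.4 and 9.96 CPM. The groups did not overlap, but the distance between them was small. The log2 fold change was 0.32 (SE 0.12, 95% interval 0.08 to 0.55, edgeR adjusted p = 0.0462). Over the alternatives with 2 samples per group, the adjusted p-value ranged from 0.0249 (edgeR, replicate block) to 0.161 (DESeq2 Wald test). GSTM4 had 23.1 and 19.6 CPM in vehicle and 25.8 and 23.1 CPM in Liq. The lower Liq sample and the higher vehicle sample were nearly equal. The log2 fold change of GSTM4 was 0.19 (SE 0.10, 95% interval -0.01 to 0.40, edgeR adjusted p = 0.170).

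GSTM1, a gene that is missing from many human genomes through a common deletion, had 0 and 1 counts in vehicle and 1 and 3 in Liq. All 4 values were at or under the floor of 3 counts, and no fold change is given. GSTM5, which is no member, had 0, 0, 0 and 1 counts. Whether ES2 carries GSTM1 was not tested.

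Within a sample, GSTM3 made up 74.0% and 75.2% of all GSTM reads in vehicle and 76.8% and 78.0% in Liq. The exact 95% binomial intervals were 72.8% to 75.3% and 73.9% to 76.5% in vehicle and 75.6% to 77.9% and 77.0% to 78.9% in Liq, so those of vehicle replicate 2 and Liq replicate 1 overlapped. The share of GSTM4 was 19.0% and 17.7% in vehicle and 16.5% and 15.4% in Liq, and that of GSTM2 lay between 6.6% and 7.1% in all 4 samples. These shares need no scaling between libraries, and the intervals cover counting error only. With 2 samples against 2, the exact two-sided permutation test of a single value cannot go below p = 0.3333, so no test of the shares was made.

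**Figure D3:**
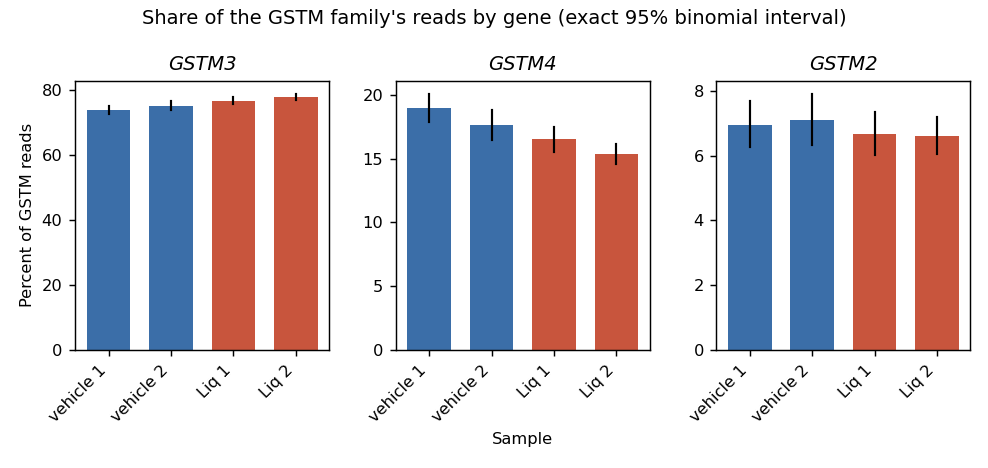
Percent of the reads of all 5 GSTM genes that were counted on GSTM3, GSTM4 or GSTM2 in each sample. Bars start at 0 and black lines are exact 95% binomial intervals. The GSTM3 share was 74.0% to 75.2% in vehicle and 76.8% to 78.0% in Liq, and the GSTM4 share was lower in both Liq samples.

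GSTP1, the pi-class GST that is abundant in many tumours, did not pass either threshold. It lies on chromosome 11 from 67351213 to 67354127 (plus strand, GRCh37). It had 10332 and 8433 counts in vehicle and 8401 and 11083 in Liq, or 251.3 and 225 CPM against 236 and 221 CPM. The samples of the groups were interleaved. The log2 fold change was -0.06 (SE 0.07, 95% interval -0.21 to 0.09, edgeR adjusted p = 0.580). The interval ends short of a 1.5-fold change in both directions. The direction was not stable, with log2 fold changes of 0.02 both with loess offsets and without vehicle replicate 1. The promoter of GSTP1 is printed because it is the only one at a canonical start of a tested member that holds the core TGACNNNGC (capitals).
GSTP1 promoter, chr11:67351033-67351332, plus strand: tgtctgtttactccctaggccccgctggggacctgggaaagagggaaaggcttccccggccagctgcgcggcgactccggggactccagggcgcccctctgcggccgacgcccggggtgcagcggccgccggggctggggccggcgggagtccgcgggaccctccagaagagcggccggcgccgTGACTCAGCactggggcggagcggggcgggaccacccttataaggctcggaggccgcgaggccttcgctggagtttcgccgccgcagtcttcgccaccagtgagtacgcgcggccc
The match TGACTCAGC began at -66 from the start. A match in these letters is a description and not evidence of binding.

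MGST1, the GST of the endoplasmic reticulum and outer mitochondrial membrane that also reduces lipid peroxides, rose with Liq. The gene lies on chromosome 12 from 16500076 to 16762193 (plus strand, GRCh37). It had 2599 and 2235 counts in vehicle and 3301 and 4790 in Liq, or 63.2 and 59.7 CPM against 92.8 and 95.4 CPM. Each pair was tight and the pairs were far apart. The change was 1.53-fold, a log2 fold change of 0.62 (SE 0.08, 95% interval 0.46 to 0.77, edgeR adjusted p = 1.34e-06). Since 1.53 is close to the limit of 1.5, the call depended on the samples used. Without vehicle replicate 2 the log2 fold change was 0.57, below the limit. For comparison, MGST1 had 0.252 and 0.265 reads per GSTP1 read in vehicle and 0.393 and 0.432 in Liq. The windows at the canonical start and at a start at -530 from it are shown because they differ in the core TGACNNNGC.
MGST1 canonical promoter, chr12:16500329-16500628, plus strand: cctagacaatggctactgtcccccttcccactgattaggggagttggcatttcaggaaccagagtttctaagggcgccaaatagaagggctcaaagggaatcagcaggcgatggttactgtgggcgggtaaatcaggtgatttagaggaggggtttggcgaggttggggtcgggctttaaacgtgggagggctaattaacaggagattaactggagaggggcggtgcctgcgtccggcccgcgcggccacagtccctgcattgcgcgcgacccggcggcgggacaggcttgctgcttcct
MGST1 upstream promoter, chr12:16499799-16500098, plus strand: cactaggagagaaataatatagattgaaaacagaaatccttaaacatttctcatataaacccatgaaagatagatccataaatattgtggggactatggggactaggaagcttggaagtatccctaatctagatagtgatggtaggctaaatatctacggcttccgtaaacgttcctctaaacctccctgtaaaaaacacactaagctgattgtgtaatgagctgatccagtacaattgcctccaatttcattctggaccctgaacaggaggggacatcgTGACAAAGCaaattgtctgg
The canonical window had no match to either core, and the upstream window had TGACAAAGC beginning 30 bases after its start.

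UGDH, the dehydrogenase that supplies UDP-glucuronate both for glucuronidation and for hyaluronan and other glycosaminoglycans, rose to a similar extent. The gene lies on chromosome 4 from 39500375 to 39529931 (minus strand, GRCh37). It had 6645 and 6170 counts in vehicle and 8584 and 13178 in Liq, or 162 and 165 CPM against 241 and 263 CPM. The vehicle samples were almost equal, and the Liq samples were both higher and further from each other. The change was 1.54-fold, a log2 fold change of 0.63 (SE 0.07, 95% interval 0.48 to 0.77, edgeR adjusted p = 2.21e-07). Without Liq replicate 2 it was 0.56, below the 1.5-fold limit. There were 0.643 and 0.732 UGDH reads per GSTP1 read in vehicle and 1.02 and 1.19 in Liq, so UGDH passed GSTP1 in reads only in the Liq samples. In GENCODE 513 exon bases of UGDH also lie in its antisense gene UGDH-AS1, none of them in the canonical transcript, and the strand setting of the counting is not given.
UGDH promoter, chr4:39529010-39529309, minus strand: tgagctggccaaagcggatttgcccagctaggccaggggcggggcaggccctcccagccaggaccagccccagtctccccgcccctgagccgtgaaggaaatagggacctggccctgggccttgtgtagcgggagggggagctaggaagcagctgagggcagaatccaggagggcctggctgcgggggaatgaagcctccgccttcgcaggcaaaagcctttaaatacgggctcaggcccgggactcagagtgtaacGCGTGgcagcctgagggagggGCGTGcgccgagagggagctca
This window, shown because UGDH was called higher, had no TGACNNNGC and 2 matches to GCGTG, which began 7 and 28 bases after the start.

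UGT1A6, which glucuronidates small planar phenols, had 0 counts in all 4 samples. It is one of the genes of the UGT1A locus on chromosome 2 (234600253 to 234681946 for UGT1A6, plus strand, GRCh37), which have separate first exons and share the others. Of the bases of its canonical transcript, 76.7% lie in exons of other genes, and 58.8% of its 100-base windows occur in transcripts of other UGT1A genes. Reads there may have been left out as ambiguous, so the count covers only the rest of the transcript, on which no read fell. Of the 21 other UDP-glycosyltransferases fixed as a list, 18 had 0 counts in every sample and only UGT8 could be tested. UGT8, which makes galactosylceramide, had 9.51 and 7.67 CPM in vehicle and 7.48 and 9.34 CPM in Liq, with groups that overlapped and a log2 fold change of -0.02 (SE 0.13). UGDH rose, while no listed gene of the UGT1 and UGT2 families passed the filter. The other UGT1A genes share exons with UGT1A6, so reads on them may also have been left out. How much sequence the UGT2 genes share was not examined.

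**Figure D4:**
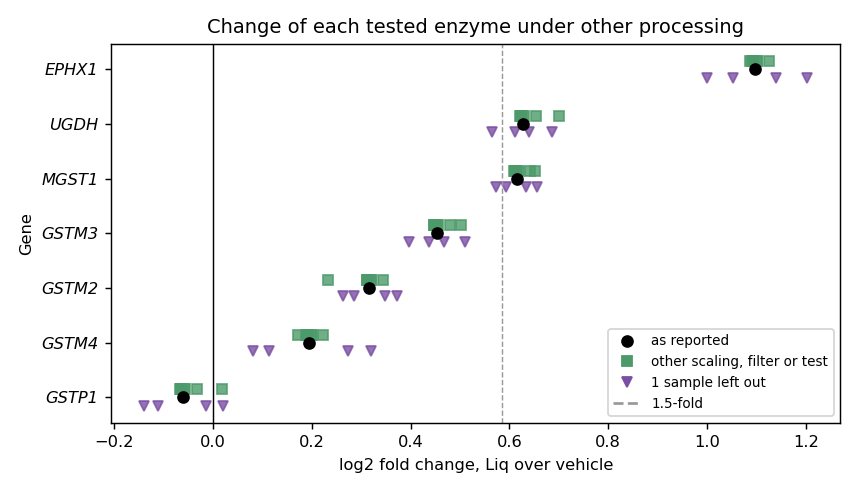
Log2 fold change of each tested enzyme as reported (black), under 7 other scalings, filters or tests (green squares) and with 1 sample left out (purple triangles). The dashed line marks a 1.5-fold rise. EPHX1 stays beyond it throughout, MGST1 and UGDH each cross it when 1 sample is left out, and GSTP1 stays near 0 on both sides.

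Levels of different genes were compared per kilobase, as TMM-normalized CPM divided by the length of the union of exons annotated in GENCODE. These exons may differ from those on which the reads were counted. In vehicle GSTP1 was highest at 135 ± 10.4 CPM per kilobase (SD, n = 2), followed by UGDH at 40.6 ± 0.56, GSTM3 at 18.2 ± 1.0, MGST1 at 8.26 ± 0.33, EPHX1 at 8.23 ± 0.81, GSTM4 at 3.98 ± 0.47 and GSTM2 at 0.895 ± 0.047. MGST1 and EPHX1 differed by less than their spread, and the other neighbours differed by more. In Liq EPHX1 came to 17.6 ± 0.76 and MGST1 to 12.7 ± 0.25 with this length, but EPHX1 was below MGST1 with the other lengths, at 24.4 against 43.7 (longest transcript) and 26.7 against 101.8 (canonical transcript). The order depended on the length used. With the longest transcript MGST1 stood above GSTM3, at 28.6 ± 1.2 against 21.0 ± 1.2. With the canonical transcript, a length added after seeing the data, MGST1 came to 66.4 ± 2.7 in vehicle, above UGDH at 53.7 ± 0.74, and GSTM4 to 15.3 ± 1.8, above EPHX1 at 12.5 ± 1.2. GSTP1 was highest and GSTM2 lowest of the 7 with each length.

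Promoters were searched for 9 of the 10 members, in 14 windows of 300 bases. EPHX2, on chromosome 8, was left out of the search, so whether its promoter holds these cores is not known here. The core TGACNNNGC was found in a window of 5 of the 9 genes, EPHX1, GSTM1, GSTP1, MGST1 and UGT1A6, against 16.1% of all genes in the table. Of the tested members that held it, GSTP1, which was not called, had it in the window at its canonical start. EPHX1 and MGST1, which were called higher, had no match in their canonical windows. Their matches lay in windows at other starts, 15229 bases downstream for EPHX1 and at -530 for MGST1. The window of UGDH, also called higher, had none. Whether the core has a part in the changes was not tested. GCGTG was found in 5 of 9 members, against 40.6% of all genes. With the looser core TGANNNNGC, which contains the first, all 9 had a match, against 47.1% of all genes. A gene with several windows has more chances of a match, and no match says only that these letters are not in the window. By window, TGACNNNGC was in 5 of 14 against 13.3% of all promoters, and TGANNNNGC in 9 of 14 against 41.8%. GCGTG was in 5 of 14 windows against 36.5% of all promoters, close to that share.

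The neighbouring steps of conjugation were examined with lists chosen with earlier results of these data known. The counts of each list below stand against the shares over all tested genes. By the call rule 6.45% were called, 4.29% higher and 2.16% lower. At the adjusted p-value alone 24% passed, 12.6% higher and 11.3% lower. Of 20 other GSTs and related membrane enzymes, 10 were tested, 2 rose and none fell by the call rule, and the median log2 fold change was 0.11. GSTA4, an alpha-class enzyme active on hydroxynonenal, had 6.10 and 6.44 CPM in vehicle and 10.4 and 10.8 CPM in Liq, and rose by 0.76 on the log2 scale (SE 0.12, edgeR adjusted p = 3.04e-05). PTGES, the inducible prostaglandin E synthase, rose from 2 and 3 counts to 10 and 14, and it was called in 4 of 11 alternatives. Its vehicle counts were at or under the floor of 3, it passed the filter only through the Liq samples, and it was not tested where 10 counts were required in every sample, so GSTA4 is the call of this list that does not rest on such counts. GSTO1, the omega-class enzyme, had 230 and 215 CPM in vehicle and 153 and 161 CPM in Liq, a log2 fold change of -0.50 (edgeR adjusted p = 7.46e-06) that stayed below 1.5-fold. GSTK1 and MGST3 had log2 fold changes of -0.06 and 0.08.

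Of 15 tested genes of UDP-glucuronate supply, transport and use, 0 were called (edgeR), and 2 had an adjusted p-value under 0.05, both lower (median log2 fold change 0.01). UGP2, which makes the UDP-glucose that UGDH oxidizes, had 91.8 CPM in vehicle and 90.6 CPM in Liq (means, n = 2), and the log2 fold change was -0.02 (SE 0.08). The 3 genes of this list with the highest mean expression were HK1, HK2 and PGM2, with log2 fold changes of -0.14, -0.24 and -0.43. HAS2 and HAS3, which build hyaluronan from UDP-glucuronate, were among those not called, with log2 fold changes of -0.28 and 0.19.

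Of 15 tested genes that export or further process conjugates, 3 rose and none fell (median log2 fold change 0.18). ABCC3, an exporter of glucuronides and glutathione conjugates, rose by 1.53 on the log2 scale, from 6.57 CPM to 19.1 CPM. ABCC2, the exporter of the apical membrane, rose by 0.81, from 6.74 to 11.8 CPM. GGT5, a gamma-glutamyltransferase that cleaves glutathione conjugates, rose by 1.19, from 42.9 to 98.0 CPM. ABCC2, ABCC3 and GGT5 were called in each of the 11 alternatives. ANPEP, an aminopeptidase of the cell surface, had a log2 fold change of -0.52, below the call. ABCC1, a widely expressed exporter of glutathione conjugates, had a log2 fold change of 0.18.

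Of 8 tested genes of sulfate, methyl and acetyl conjugation, NNMT, a nicotinamide methyltransferase, was the only one called, with 23 and 28 counts in vehicle and 44 and 70 in Liq (log2 fold change 1.02, SE 0.28). It was not called by DESeq2 or without vehicle replicate 1. PAPSS1 and PAPSS2, which make the sulfate donor, had log2 fold changes of -0.00 and 0.02. Of 7 tested P450 genes and partners, CYP1B1, which oxidizes polycyclic hydrocarbons and estrogens, was the only one called. It had 33 and 29 counts in vehicle and 12 and 17 in Liq, a log2 fold change of -1.22 (SE 0.35), and the call was lost in 4 of 11 alternatives. CYP2J2, an epoxygenase of arachidonic acid, had a log2 fold change of 0.52. CYB5R3, POR and CYP2U1 had log2 fold changes of -0.12, 0.18 and 0.11. The median was 0.01 for the conjugation list and 0.10 for the P450 list.

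Of 12 tested reference targets of NRF2, 9 rose and none fell, with a median log2 fold change of 0.92. This list was chosen with results of these samples known and is given for scale only, not as independent evidence. NQO1 rose by 0.68, HMOX1 by 1.11, GCLM by 0.94, TXNRD1 by 1.00 and SLC7A11 by 1.36 on the log2 scale. AKR1C1, AKR1C3 and OSGIN1 rose by 1.48, 0.90 and 1.04, and the AKR1C genes are close copies whose counts are uncertain. GCLC, SRXN1 and AKR1C2 had log2 fold changes of 0.22, 0.18 and 0.64 and were not called. NQO1 fell below the 1.5-fold limit without Liq replicate 2, at 0.57.

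Of 13 tested regulators, 1 rose and 2 fell (median log2 fold change 0.04), against 4.29% higher and 2.16% lower over all tested genes. NFE2L2, which encodes NRF2, had 147 CPM in vehicle and 122 CPM in Liq (means, n = 2), a log2 fold change of -0.27 (SE 0.07, edgeR adjusted p = 0.00833) that was below the call. KEAP1, its inhibitor, had 50.8 and 53.0 CPM. MAFF, a small MAF partner, fell by 0.95 on the log2 scale. AHR, the aryl hydrocarbon receptor, rose by 0.75 and its repressor AHRR fell by 1.16, from 38.7 CPM to 17.3 CPM. NFE2L1 and BACH1, among the highest of the list, had log2 fold changes of 0.04 and -0.10.

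**Figure D5:**
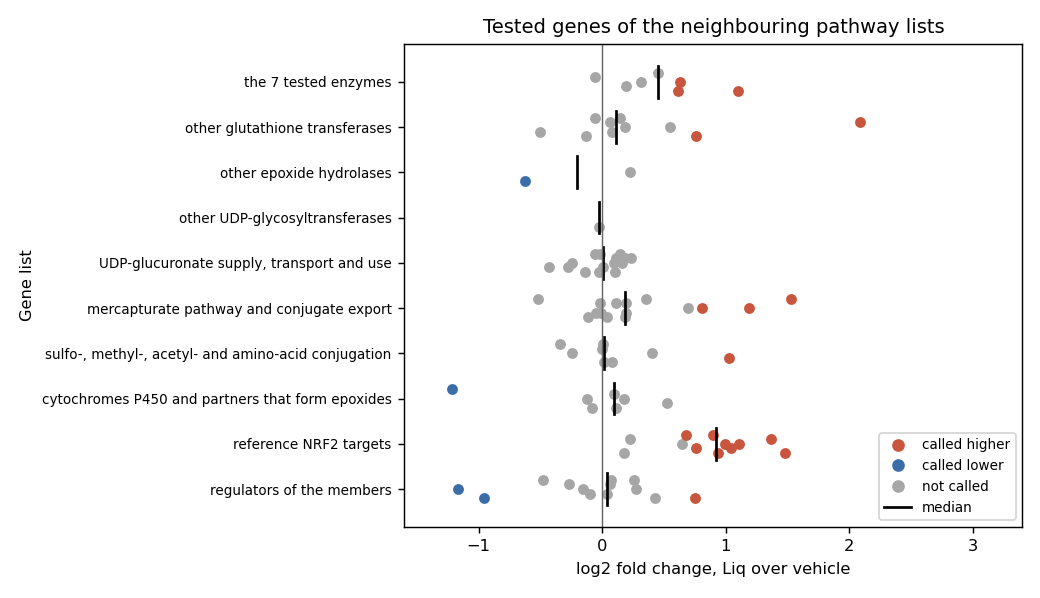
Log2 fold change, Liq over vehicle, of every tested gene in each list, with the 7 tested enzymes on top. Red points were called higher, blue points lower and grey points neither, and black bars are medians. The enzymes have a median of 0.45, the reference NRF2 targets 0.92, and the other lists lie between -0.20 and 0.18.

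The 3 tested genes whose profile over the 4 samples was nearest to that of EPHX1 were ATOH8, ID1 and TRAPPC6A. The measure was the Euclidean distance between log2(CPM + 1) values centred on the vehicle mean, and it was 0.07 for ATOH8, 0.10 for ID1 and 0.11 for TRAPPC6A. ATOH8 had 2.75 and 2.40 CPM in vehicle and 6.38 and 6.34 CPM in Liq. ID1, an inhibitor of helix-loop-helix factors, had 13.6 and 12.8 CPM in vehicle and 30.8 and 27.9 CPM in Liq. TRAPPC6A had 2.63 and 1.87 CPM in vehicle and 5.85 and 5.42 CPM in Liq. The fold changes were 2.461 for ATOH8, 2.217 for ID1 and 2.485 for TRAPPC6A, against 2.139 for EPHX1. Adding 1 to the CPM makes changes of low genes, such as ATOH8 and TRAPPC6A, smaller in this measure. With only 4 samples in 2 groups, such likeness describes little more than a similar change on that scale.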

How the data were processed

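RNA-seq counts of ES2 cells were analysed. According to the submitters' processing notes, reads were demultiplexed with bcl2fastq 2.17.1.14, aligned to hg19 with TopHat2 2.0.8b and counted with HTSeq. The authors deposited raw counts, whole numbers per gene and sample, not normalized or pooled. The mode and strand setting of the counting are not given in the sources used here. The 5 tally lines that end each table were left out of library sizes and tests. Reads on genes were 54.06% to 55.62% of the whole tally. The left-out lines included 35.63% to 36.23% for alignments to more than 1 place and 0.54% to 0.56% for reads ambiguous between genes. A read with several alignments may have been tallied more than once, so these are shares of the tally.

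The counts went into edgeR 4.0.16 under R 4.3.3. Low genes were removed by filterByExpr (minimum count 10, minimum total 15). The remaining 13546 genes were scaled by TMM and, with no block for the replicate number, tested with glmQLFit and glmQLFTest. The SE is the size of the log2 fold change divided by the square root of F. Intervals are 95%. The study used DESeq with limits of 1.5-fold and p under 0.05; whether that p was adjusted is not stated, so the adjusted p was used. The fits were also run on simulated counts, with as many genes raised as lowered among otherwise unchanged genes. That run is not used as support here. The members and all gene lists were chosen with earlier results of these data known. Named genes are all members, the called genes of each list, up to 3 uncalled ones of highest mean CPM and, for EPHX1, 3 of nearest profile; other genes were named after their values were seen, and some genes of the lists are not reported here by name. Alternatives were 2 other scalings, loess offsets (span 0.3), 2 filters, DESeq2 1.42.0, a replicate block, each sample left out, other call rules and other lengths or motif cores. Coordinates are from GENCODE on GRCh37, and coding sequences were aligned with Biopython 1.88.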

Additional observations from a re-analysis of the deposited data

How the results depend on the processing

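The direction of change held in all 11 alternative fits for EPHX1, GSTM2, GSTM3, GSTM4, MGST1 and UGDH, and that of GSTP1 reversed to 0.0183 with loess offsets (edgeR adjusted p = 0.888) and spanned -0.14 to 0.02 over the fits that left out 1 sample. Of 77 alternative values of the 7 members, 73 kept direction and call, 2 reversed and 2, MGST1 without vehicle replicate 2 and UGDH without Liq replicate 2, fell below 1.5-fold. Members called numbered 3 in every alternative scaling, filter and test, 2 to 3 with 1 sample left out, 5 with no fold threshold and 1 at 2-fold. Over all genes, 874 were called. DESeq2 called 567 (341 higher), loess offsets put 350 higher, no fold threshold gave 3245 (1712 higher and 1533 lower) and a 2-fold limit gave 328 (209 and 119). A fit that left out 1 sample had no spread within the group of 1, so calls in it take their spread from the other group. With the replicate number as a block, 898 genes and 3 members were called. Same-numbered samples deviated from their group means with a correlation of 0.034 across genes, the labels give the numbers no meaning, and the block changed no call of a member. The cause of these shifts was not tested. With 2 samples per group the calls lean on a spread estimated jointly over genes. EPHX2, GSTM1 and UGT1A6 had too few counted reads to test. Other genes share 37.9% of the 100-base windows of GSTM1 and 58.8% of those of UGT1A6, and reads from there may have been left out. The counts, 0 to 3 per sample for GSTM1 and 0 for UGT1A6, thus cover the rest of each transcript. GSTM2, with 37% of its windows shared, had 294 to 500 counts. What reads from the shared parts would add was not tested.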
